A study of Mus musculus with 8 samples.

Results

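The Hes and Hey genes, their close relatives Bhlhe40 and Bhlhe41, and Nrarp were followed in ID8 IP2 cells with and without an active Notch3 receptor. The 10 genes (Hes1, Hes2, Hes6, Hes7, Hey1, Hey2, Heyl, Nrarp, Bhlhe40 and Bhlhe41) were chosen by symbol from the 23284 gene symbols of the deposited count tables, and all 10 were found there. ID8 IP2 is a subline of ID8, a mouse ovarian surface epithelial tumor line, passed through C57BL/6 mice, and the methods also describe a luciferase-mCherry lentivirus in these cells and say that later testing pointed to mycoplasma in all ID8 IP2 lines. Notch3IC lines carry a pCCL lentivirus with the HA-tagged intracellular domain of Notch3 and, behind an IRES, GFP, and Control lines carry the pCCL vector without it. Each of Sets 1 to 4 is a separate infection that gave a matched Control and Notch3IC line, so there were 4 libraries of polyadenylated RNA per group. The empty vector is not described as carrying GFP, so the presence of Notch3IC and of GFP cannot be told apart. The sources used here do not name the promoter that drives Notch3IC or give the share of infected cells in each line.

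When a Notch receptor is activated, its intracellular domain moves to the nucleus, joins the DNA-binding protein RBPJ and a Mastermind-like coactivator, and turns on target genes. Many of the best known targets encode basic helix-loop-helix (bHLH) repressors of the Hes and Hey families, which silence other genes with Groucho/TLE and other corepressors. Hey genes are best known from blood vessels and heart, and Hes1 from neural and other progenitor cells. Nrarp is not a DNA-binding repressor but a small ankyrin-repeat protein that binds the intracellular domain of Notch and dampens the signal. Bhlhe40 and Bhlhe41 are related bHLH repressors of the circadian clock and of stress responses.

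The label of the line was checked against markers of the ovarian surface epithelium. The mesothelial gene Upk3b was the most abundant of the 10 markers in Control, at 21821 ± 10666 normalized counts (SD, n = 4), and had 6635 ± 4295 in Notch3IC (SD, n = 4). Wt1 was the most abundant in Notch3IC, at 7082 ± 2529 (SD, n = 4), and Gata4, Krt8 and Krt18 were also present in every library. Krt7 was scarce, with 1.12 to 44.0 normalized counts. A normalized count is the read count of a gene after edgeR's TMM scaling, set to the mean depth of the 8 libraries. The libraries held 19013578 to 28208072 counts in Control and 15524262 to 27107061 in Notch3IC.

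Notch3IC and Control were compared with edgeR's quasi-likelihood test over the 12430 genes that passed its expression filter. A gene was called at a Benjamini-Hochberg adjusted p under 0.1 when its log2 fold change also reached 1 or -1. Of the 10 genes, 8 were tested, and Hes2 and Hes7 had too few counts. The 3 Hey genes and Nrarp were called higher, and no gene of the 10 was called lower, where 3.40% of all genes tested were called higher and 0.740% lower. Hey2 and Heyl passed the filter through their Notch3IC libraries, so that a difference in them was needed for the test. At an unadjusted p under 0.05 the same edgeR test gave 5 of the 10 higher and 0 lower, beside 11.8% and 6.65% of all genes tested. DESeq2 called 4 of the 10 higher, beside 5.05% of the genes it tested, and 0 lower. Each of the 4 calls held with any single library left out, and none held without the whole of Set 3 or of Set 4, where at most 1 gene of the entire table was called. Without Set 3 the log2 fold changes were 7.19 for Hey1, 6.14 for Hey2 and 7.25 for Nrarp, and without Set 4 they were 7.14, 7.17 and 7.46. For the same 4 genes, every Notch3IC library lay above every Control library, as in 7.08% of all genes tested.

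**Figure D1:**
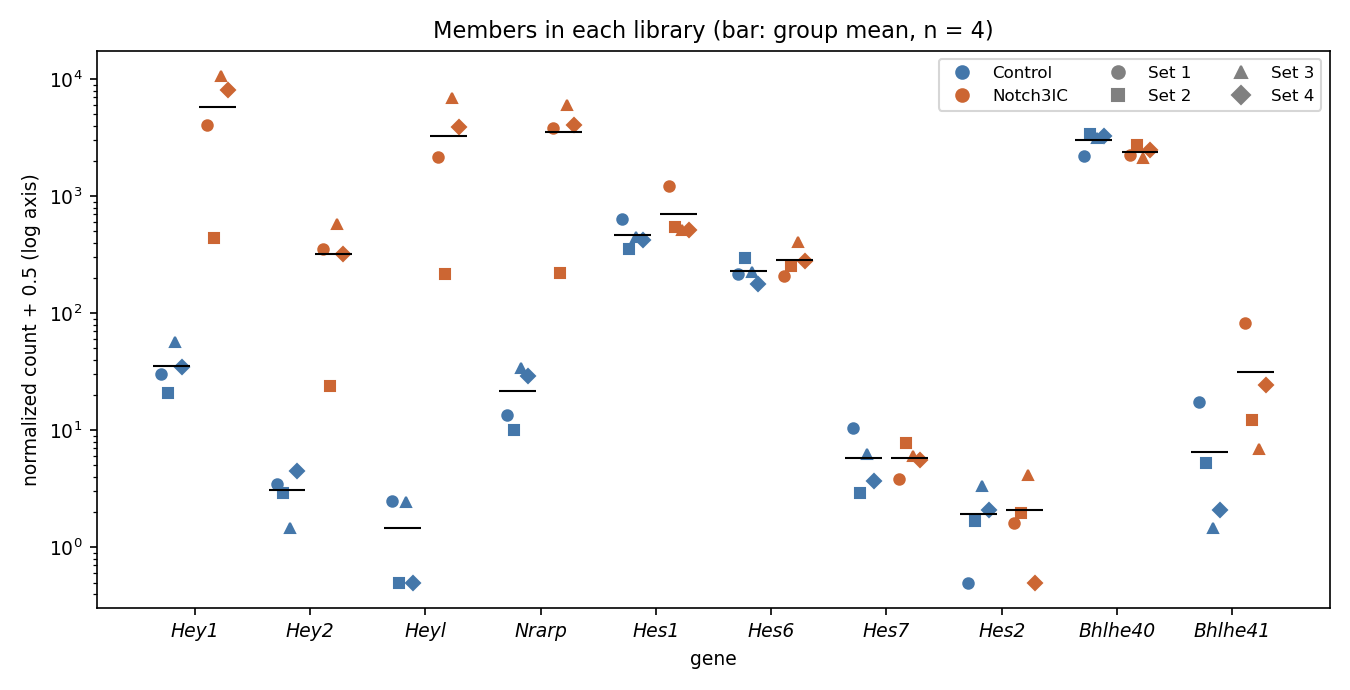
Normalized counts plus 0.5 on a log axis for the 10 genes in the 8 libraries (Control blue, Notch3IC orange, marker shape for the set, bar for the mean of 4 libraries). The groups are separated for Hey1, Hey2, Heyl and Nrarp and overlap for the others, and the Notch3IC library of Set 2 is the lowest orange point of the separated genes.

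Hey1 (ENSMUSG00000040289.8) lies on chromosome 3 from 8663359 to 8667256 (GRCm38, minus strand) and encodes a Hey repressor that marks arterial endothelium. Sets 1 to 4 gave 30, 17, 59 and 43 counts of Hey1 in Control and 3647, 299, 11572 and 9486 in Notch3IC. The groups did not overlap, and the Set 2 library was more than 9-fold below the next Notch3IC library after scaling, at 438 against 4079 normalized counts. By edgeR this was a log2 fold change of 7.35 with a standard error of 0.84 (adjusted p = 0.0169).

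Within the sets, the ratio of normalized counts of Hey1 was 137 in Set 1, 21.6 in Set 2, 188 in Set 3 and 235 in Set 4. The 95% counting interval of the Set 2 ratio, from 13.3 to 37.6 (exact Clopper-Pearson), lay below that of Set 1, from 95.9 to 204. These intervals cover counting error alone, as do all intervals given here. Notch3 itself rose least in Set 2, with 319 counts in its Notch3IC library against 3864, 10026 and 6915 in Sets 1, 3 and 4. In bulk RNA a smaller share of infected cells and less Notch3 RNA per cell cannot be told apart, and the counts do not separate the insert from the endogenous Notch3 gene.

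Heyl (ENSMUSG00000032744.4, chromosome 4 from 123233556 to 123249875, plus strand) encodes a Hey repressor best known from vascular smooth muscle. Heyl counts were 2, 0, 2 and 0 in Control, again in the order of Sets 1 to 4, and 1927, 147, 7460 and 4628 in Notch3IC. The gene was close to silent in every Control library and abundant in 3 of 4 Notch3IC libraries. With the Control library at 0 counts set to a floor of 3 counts, Heyl was at least 60.1-fold higher in Set 2 and at least 1644-fold higher in Set 4. The ratio was 1087 in Set 1 (95% counting interval 300.4 to 8980) and 3584 in Set 3 (992 to 29597). The adjusted p of edgeR was 0.0169, and no fitted fold change is given because it depends on the prior count.

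Hey2 (ENSMUSG00000019789.9) lies on chromosome 10 from 30832359 to 30842801 (minus strand) and encodes the Hey repressor of the heart ventricle and of arterial fate. Control gave 3, 2, 1 and 5 counts in Sets 1 to 4, and Notch3IC 314, 16, 629 and 381, again with no overlap and with Set 2 lowest. The ratio was 118 in Set 1 (95% counting interval 40.0 to 576), 9.82 in Set 2 (2.31 to 88.0), 604 in Set 3 (108 to 23907) and 81.2 in Set 4 (34.5 to 252). The intervals of Sets 1, 3 and 4 overlap one another, and the interval of Set 2 overlaps those of Sets 1 and 4 but not that of Set 3. Its fitted log2 fold change was 6.86 with a standard error of 1.08 (adjusted p = 0.0182 by edgeR), and Hey2 was the least abundant of the 3 Hey genes in Notch3IC.

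Nrarp (ENSMUSG00000078202.3) is a single-exon gene on chromosome 2 from 25180758 to 25183339 (plus strand). For Nrarp, Control gave 13, 8, 35 and 36 counts in Sets 1 to 4, and Notch3IC 3433, 151, 6560 and 4786. The groups did not overlap, and the within-set ratios were 298 in Set 1, 23.2 in Set 2, 180 in Set 3 and 142 in Set 4. The fit of edgeR gave a log2 fold change of 7.34 with a standard error of 0.91 (adjusted p = 0.0169). In the GENCODE annotation 79.4% of its exon bases lie over the antisense gene Gm38287, and the strandedness of the libraries is not given in the sources used here, so reads of the pair cannot be told apart.

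Promoter windows (250 bases before to 50 after a start site, RefSeq, GRCm38.p6) were at hand for 5 of the 10 genes: Hes6, Hes7, Hey2, Nrarp and Bhlhe41. Those of Hey2 and Nrarp, which rose, and of Hes7, which was close to silent in both groups, are shown to set the letters beside the response. Capitals mark the RBPJ core GTGGGAA and 3 motifs of Hes and Hey proteins themselves, the E-box CACGTG, the class C site CACGCG and the N-box CACNAG, each searched on both strands, and no match overlapped another. Each is written 5′ to 3′ on the strand of the gene, for Hey2 at chr10:30842734-30843033 (minus strand), Nrarp at chr2:25180508-25180807 (plus strand) and Hes7 at chr11:69120203-69120502 (plus strand).
Hey2: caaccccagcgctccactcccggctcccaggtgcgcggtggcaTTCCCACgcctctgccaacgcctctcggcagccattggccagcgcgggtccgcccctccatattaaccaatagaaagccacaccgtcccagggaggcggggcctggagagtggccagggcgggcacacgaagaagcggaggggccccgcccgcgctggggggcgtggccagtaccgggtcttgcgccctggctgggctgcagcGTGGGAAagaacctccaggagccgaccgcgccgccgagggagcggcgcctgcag
Nrarp: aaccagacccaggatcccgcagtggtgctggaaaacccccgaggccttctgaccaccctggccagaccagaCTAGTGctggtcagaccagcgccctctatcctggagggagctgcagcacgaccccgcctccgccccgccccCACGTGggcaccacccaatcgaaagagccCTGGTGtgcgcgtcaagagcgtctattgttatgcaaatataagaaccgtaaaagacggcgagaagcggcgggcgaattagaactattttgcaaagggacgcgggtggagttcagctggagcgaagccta
Hes7: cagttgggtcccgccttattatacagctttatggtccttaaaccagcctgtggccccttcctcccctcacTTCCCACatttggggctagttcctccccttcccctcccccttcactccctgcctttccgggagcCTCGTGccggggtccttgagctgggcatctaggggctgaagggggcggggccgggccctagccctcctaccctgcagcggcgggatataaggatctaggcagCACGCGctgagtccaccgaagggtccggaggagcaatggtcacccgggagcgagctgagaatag

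The Hey2 window held the RBPJ core at position -207 on the reverse strand (as TTCCCAC) and at -4 on the forward strand, counted from the start site at 1. The Nrarp window held no such core, and held an E-box at -108 and N-boxes at -179 and -79. The Hes7 window held the RBPJ core at -180, an N-box at -116 and a class C site at -14. Among all 32851 windows of this length, 6.38% held the RBPJ core, 7.15% the E-box, 9.27% the class C site and 42.5% the N-box. Neither the Hes6 windows nor that of Bhlhe41 held the RBPJ core. The Bhlhe41 window held an E-box at -153 and a class C site at -120, and a Hes6 window held N-boxes at -237 and 16. A match or its lack describes the letters of a window and was not tested as a site of binding.

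Hes1 (ENSMUSG00000022528.8, chromosome 16 from 30064384 to 30067796, plus strand), the Hes repressor most often used as a Notch target, was not called, as edgeR put its log2 fold change at 0.58 with a standard error of 0.32 (adjusted p = 0.388). With the matched set as a block its log2 fold change was 0.51 with a standard error of 0.14, where the adjusted p of 0.0636 was under 0.1 and the fold change under the limit of 1. Sets 1 to 4 gave 645, 298, 468 and 535 counts of Hes1 in Control, and 1097, 375, 554 and 606 in Notch3IC. The groups overlapped, while each Notch3IC library was above the Control library of its own set. The within-set ratio was 1.92 in Set 1 (95% counting interval 1.74 to 2.12), 1.54 in Set 2 (1.32 to 1.80), 1.14 in Set 3 (1.00 to 1.29) and 1.21 in Set 4 (1.07 to 1.36). The order of the sets was thus not that of the Hey genes, as the ratio of Hes1 was lowest in Sets 3 and 4, where the Hey1 ratio was highest. The log2 fold change of Hes1 was 0.17 when the Notch3IC library of Set 1 was left out, 0.77 when its Control library was, and 0.35 (standard error 0.12, adjusted p = 0.150 by edgeR) when both were.

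Hes6 (ENSMUSG00000067071.8, chromosome 1 from 91411483 to 91414038, minus strand) encodes a divergent Hes protein that can counteract Hes1 and is found in differentiating neural and muscle cells. It had 216, 250, 235 and 222 counts in Control and 187, 172, 444 and 330 in Notch3IC. The direction differed between the sets, with ratios of 0.977 and 0.844 in Sets 1 and 2 (95% counting intervals 0.799 to 1.19 and 0.691 to 1.03) and of 1.82 and 1.58 in Sets 3 and 4 (1.55 to 2.14 and 1.33 to 1.89). With a log2 fold change of 0.33 and a standard error of 0.24, Hes6 was not called (adjusted p = 0.521 by edgeR). With a library or set left out, its log2 fold change ranged from 0.11 to 0.55.

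The remaining Hes genes were scarce. Hes7 (ENSMUSG00000023781.2, chromosome 11 from 69120404 to 69124055, plus strand), an oscillating gene of the embryonic segmentation clock, had 22 counts over the 4 Control libraries and 20 over the 4 Notch3IC libraries, a ratio of 0.981 (95% counting interval 0.508 to 1.88). The exact permutation test of its normalized counts (two-sided, n = 4 per group) gave p = 1.00. Hes2 (ENSMUSG00000028940.2, chromosome 4 from 152158867 to 152162469, plus strand) had 6 counts in each group, with 0 to 4 in any library (exact permutation p = 0.943, two-sided, n = 4 per group). With so few reads, a change of a few fold in Hes2 was not detectable at this depth. Of the other family members, Hes3 and Hes5 had at most 2 counts in any library, and Helt had 0 in all 8.

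Bhlhe40 (ENSMUSG00000030103.11, chromosome 6 from 108660629 to 108666925, plus strand) was the most abundant of the 10 genes in Control. Sets 1 to 4 gave 2225, 3430, 3138 and 3264 normalized counts of it in Control, and 2250, 2724, 2122 and 2499 in Notch3IC. The groups overlapped through the Control library of Set 1, with a ratio of 1.01 in that set (95% counting interval 0.952 to 1.07) and of 0.794, 0.676 and 0.766 in Sets 2, 3 and 4, whose intervals ended at 0.842, 0.713 and 0.803. The log2 fold change of -0.33 had a standard error of 0.15 and was not called (adjusted p = 0.284 by edgeR). With the matched set as a block its adjusted p was 0.0810 at a log2 fold change of -0.32 (standard error 0.10). Without Set 1 the adjusted p was 0.0830, at a log2 fold change of -0.43 that was under the limit of 1.

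Bhlhe41 (ENSMUSG00000030256.11, chromosome 6 from 145858243 to 145865558, minus strand) had 17, 4, 1 and 2 counts in Control and 73, 8, 7 and 28 in Notch3IC. The groups overlapped, and each Notch3IC library was above the Control library of its set, with Set 1 the highest of both groups. Only Set 1 reached 10 counts in Control, so the gene passed the expression filter mostly through its Notch3IC libraries. It was not called with condition alone (log2 fold change 2.35, standard error 1.01, adjusted p = 0.259 by edgeR) and was called with the matched set as a block (log2 fold change 2.43, standard error 0.43, adjusted p = 0.0288), a fit in which 5.19% of all genes tested were called higher. Leaving out the Notch3IC library of Set 1 gave a log2 fold change of 1.25, and leaving out the Control library of that set gave 3.68. Without the whole of Set 1 the gene did not pass the expression filter and was not tested. In the annotation 13.7% of its exon bases lie over Gm43909 on the opposite strand.

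**Figure D2:**
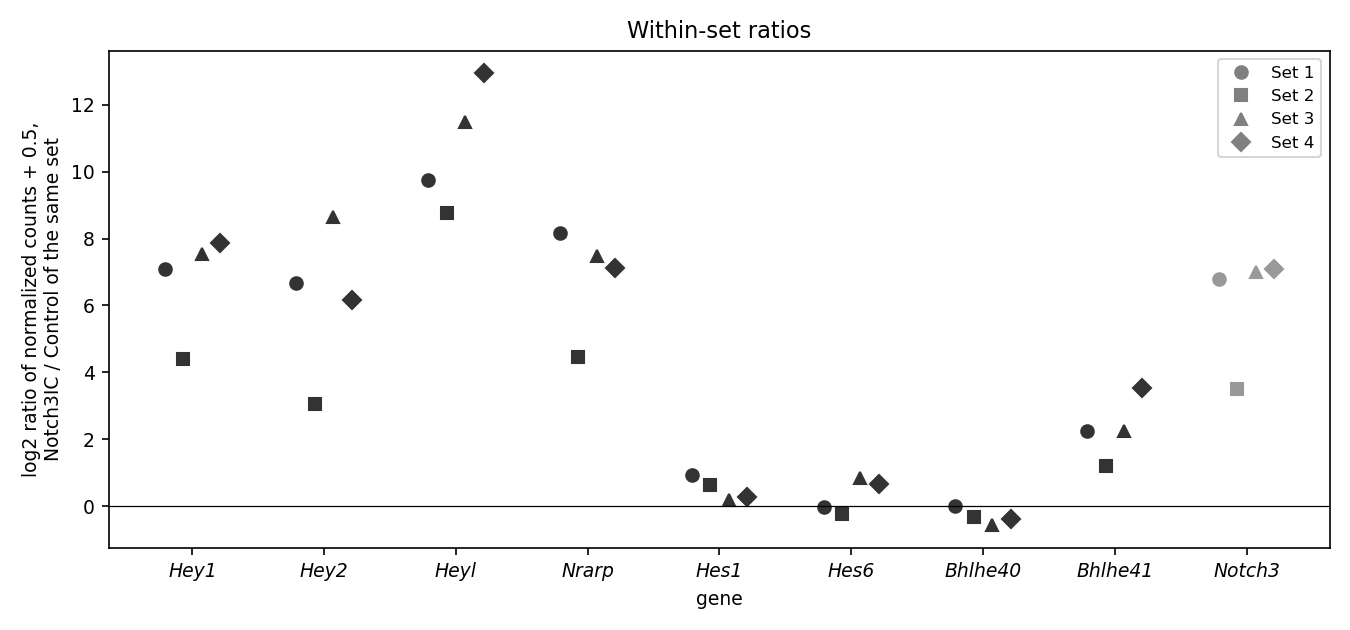
Log2 ratio of normalized counts plus 0.5, Notch3IC over Control of the same set, for the 8 genes tested and Notch3 (marker shape for the set, line at no difference). Hey1, Hey2, Heyl and Nrarp lie above 3 in every set with Set 2 lowest, as does Notch3, and Hes1, Hes6 and Bhlhe40 lie within 1 of the line.

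The Hey-class and Hes-class responses were set against each other as ratios of normalized counts plus 0.5 within a library. In these ratios scaling bears on the low Control values of Hey2 and Heyl. Hes1 alone stood for the Hes class, and Hes6, Hes2 and Hes7 were not set against the Hey genes. In Control, Hey1 was below Hes1 in every library, with a log2 ratio of -3.77 ± 0.62 (SD, n = 4). In Notch3IC the log2 ratio was 2.44 ± 2.18 (SD, n = 4), with Hey1 above Hes1 in Sets 1, 3 and 4 and slightly below it in Set 2, at -0.33. The difference between the groups was 6.21 on the log2 scale, and 6.14, 3.77, 7.36 and 7.58 within Sets 1 to 4.

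For Hey2 against Hes1 the log2 ratio went from -7.33 ± 0.74 to -1.70 ± 2.05 (SD, n = 4 per group), a difference of 5.62. For Heyl against Hes1 it went from -8.69 ± 1.08 to 1.54 ± 2.29, a difference of 10.22 with a pseudocount of 0.5, which the Control counts of 0 to 2 make dependent on that pseudocount. With a pseudocount of 0.1 or 3 the difference was 11.51 or 8.43 for Heyl, and 5.86 or 4.73 for Hey2. In each of these 3 pairs every Notch3IC library had a higher ratio than every Control library. The exact permutation test (two-sided, n = 4 per group) gave p = 0.0286 for each pair, also after Benjamini-Hochberg adjustment over the 3 pairs, and this is the smallest p that 4 against 4 allows. That test takes the libraries as unpaired, and the exact sign-flip test over the 4 matched sets gave p = 0.125 for each pair, the smallest that 4 sets allow. The direction held in 4 of 4 sets for each pair. All 3 pairs share Hes1, and they were chosen with the study's report of raised Hey1 and HeyL and unchanged Hes1 known. Their p values are therefore not independent support for a difference.

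**Figure D3:**
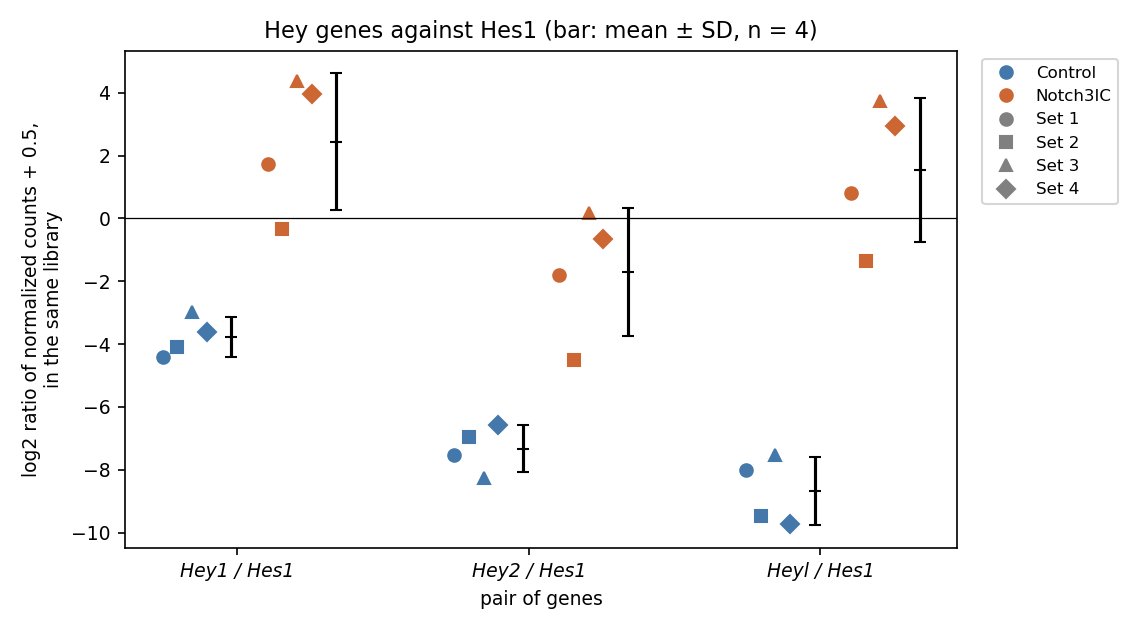
Log2 ratio of each Hey gene to Hes1 in the same library, from normalized counts plus 0.5 (Control blue, Notch3IC orange, marker shape for the set, bar for mean ± SD of 4 libraries). The orange points of each pair lie above all blue points, and the Set 2 square is the lowest orange point.

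The induced genes were also read against Notch3 in the same library. Across the 4 Notch3IC libraries the level of Notch3 spanned 19.7-fold, and the levels of Hey1, Hey2, Heyl and Nrarp spanned 24.3-, 24.7-, 31.8- and 27.3-fold. Per 100 Notch3 counts there were 94.4, 93.7, 115 and 137 counts of Hey1 in Sets 1 to 4, a span of 1.46-fold. For Heyl this was 49.9, 46.1, 74.4 and 66.9, for Hey2 8.13, 5.02, 6.27 and 5.51, and for Nrarp 88.8, 47.3, 65.4 and 69.2. The spans were 1.61-fold for Heyl, 1.62-fold for Hey2 and 1.88-fold for Nrarp. Set 2 had the lowest proportion to Notch3 for each of these genes, near that of another set for Hey1, Heyl and Hey2 and well under the others for Nrarp. Per 100 Notch3 counts, Hes1, Hes6, Bhlhe40 and Bhlhe41 spanned 21.3-, 12.2-, 25.3- and 35.9-fold. Their own levels spanned 2.41-, 1.95-, 1.28- and 12.7-fold, so the ratios of Hes1, Hes6 and Bhlhe40 mostly carry the span of Notch3. With 4 lines the relation to Notch3 was not tested, and the genes share their libraries.

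In Control, where Notch3 had 34 to 74 counts, there were 50 to 81.1 counts of Hey1 and 23.5 to 67.9 of Nrarp per 100 Notch3 counts. The Hey1 values lay below the range of the Notch3IC libraries, and those of Nrarp overlapped it. Hey2 had 1.35 to 9.43 in Control, a range that took in the whole Notch3IC range of 5.02 to 8.13. These Control values rest on 1 to 5 Hey2 counts per library, so the overlap does not show that the proportion was the same. Heyl had 0 to 5.13 counts per 100 Notch3 counts in Control against 46.1 to 74.4 in Notch3IC. In Notch3IC the counts do not separate the insert from the endogenous Notch3, so the proportions of the groups need not have the same base.

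**Figure D4:**
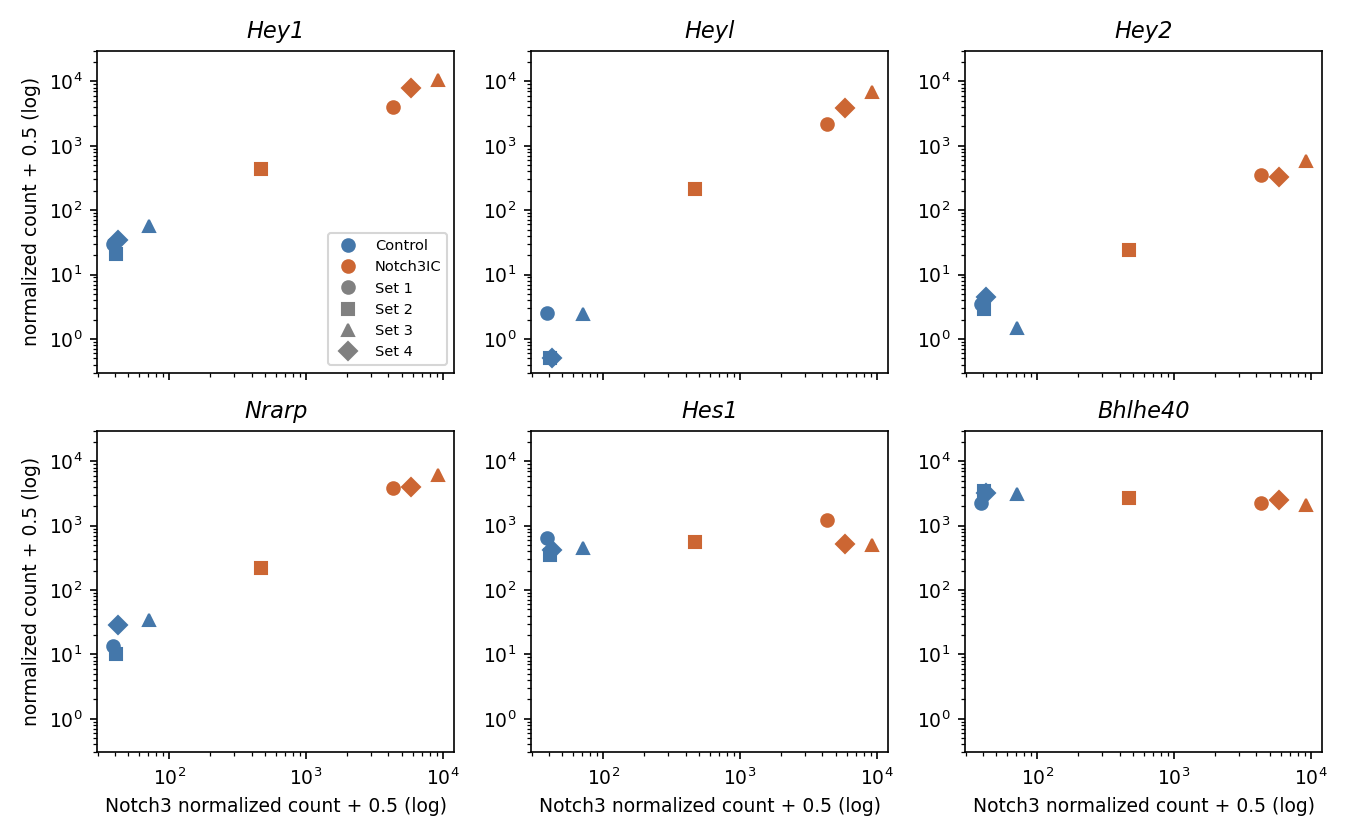
Normalized counts plus 0.5 of 6 genes against those of Notch3 in the 8 libraries, both on log axes (Control blue, Notch3IC orange, marker shape for the set). Hey1, Heyl, Hey2 and Nrarp rise along with Notch3 with Set 2 between the groups, and Hes1 and Bhlhe40 span a far narrower range.

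Levels of different genes were compared per length, as CPM per kilobase of exon, where CPM is a count scaled to the size of its library. In Control the order was led by Bhlhe40 at 40.8 ± 7.30, Hes1 at 13.6 ± 3.55 and Hes6 at 7.33 ± 1.64 (SD, n = 4), and these 3 ranges did not overlap. Hey1 followed at 0.622 ± 0.271 and Nrarp at 0.351 ± 0.194, whose ranges overlapped. Hes7, Hey2, Bhlhe41, Hes2 and Heyl came last, at means of 0.126 down to 0.00920, with neighbours overlapping. In Notch3IC, Hey1 led at 102 ± 79.1, followed by Nrarp at 58.7 ± 40.2, Bhlhe40 at 32.4 ± 3.62, Heyl at 31.0 ± 26.6 and Hes1 at 20.4 ± 10.3. The ranges of these 5 overlapped from neighbour to neighbour. Between the Notch3IC libraries the coefficient of variation was 68.5% to 85.9% for Hey1, Hey2, Heyl and Nrarp, 50.3% for Hes1, 29.9% for Hes6, 11.2% for Bhlhe40 and 112% for the scarce Bhlhe41. Hes6 (9.21 ± 2.75) lay below every Hes1 value, and by mean Hey2 (5.36 ± 3.83), Bhlhe41, Hes7 and Hes2 came below Hes6. The range of Hey2, 0.394 to 9.72, overlapped that of Hes6, 6.71 to 13.1. The range of Bhlhe41 overlapped those of Hey2 and Hes7.

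The make-up of the family changed accordingly. Of the summed level per kilobase of the 9 bHLH genes, the 3 Hey genes held 1.05%, 0.597%, 1.61% and 1.06% in Control, in the order of Sets 1 to 4, and 57.2%, 14.2%, 82.2% and 76.0% in Notch3IC. The groups did not overlap. The summed level itself was 56.6 to 66.9 CPM per kilobase in Control and 172, 71.4, 320 and 242 in Notch3IC. In Set 2, Bhlhe40 stayed the largest part at 51.6%, and in Sets 1, 3 and 4 Hey1 was the largest, at 41.9%, 58.9% and 58.6%.

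**Figure D5:**
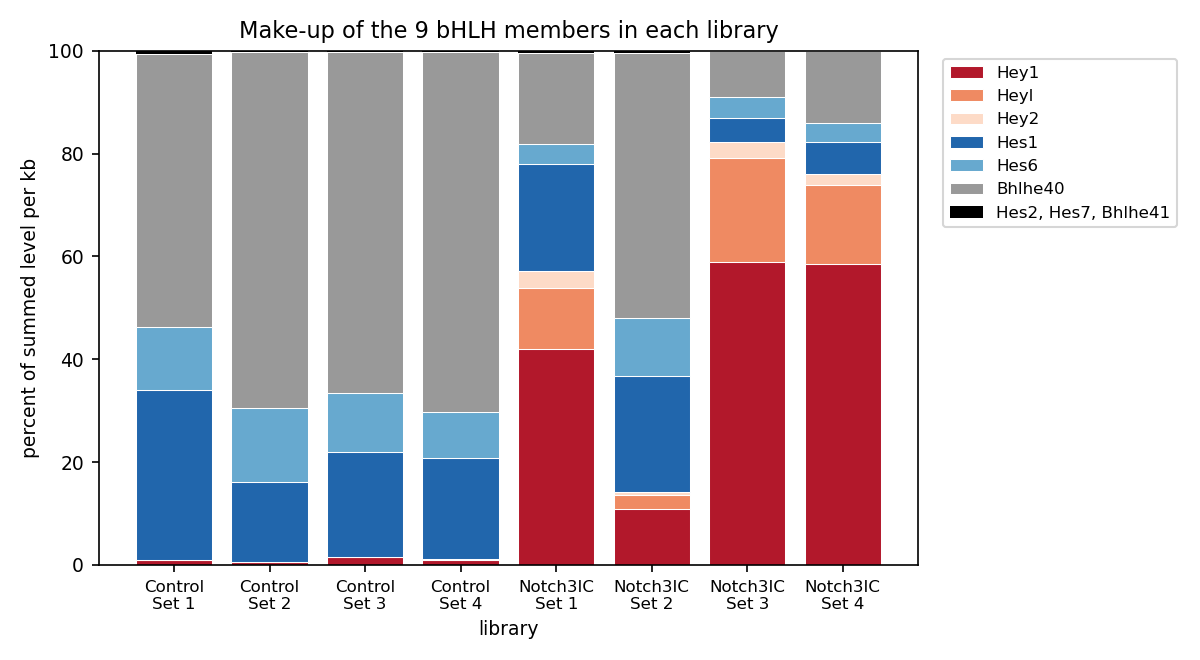
Percent of the summed level per kilobase of exon of the 9 bHLH genes in each library (stacked bars, 100% per library). Bhlhe40 and Hes1 make up most of each Control bar, and the 3 Hey genes reach 57.2% to 82.2% in Notch3IC of Sets 1, 3 and 4 but 14.2% in Set 2.

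The genes most like Hey1 over the 8 libraries were Notch3 (Pearson r = 0.998 on log2 CPM), Notch1 (0.995), Sept5 (0.990), Cdh15 (0.988) and Ggt7 (0.987), among 11033 genes. The values describe 8 libraries in 2 separated groups. Within the family, Hey1 had r of 0.981 with Hey2, 0.993 with Heyl and 0.996 with Nrarp, and 0.473 with Hes1. Hes1 was most like Ugcg (0.986), Fyn (0.981), Smc1a (0.977), Fam98a (0.974) and Hivep3 (0.966), and none of these 5 was among the 5 of Hey1. Bhlhe40 was most like Entpd7 (0.977), Acsl4 (0.976), Mtap1a (0.974), Faf2 (0.973) and Ak5 (0.967).

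Of the rest of the pathway, 1 of the 3 receptors other than the introduced Notch3 (Notch1) and 1 of 3 ligands tested (Jag1) were called higher beside the Hey genes, against 3.40% of all genes tested. Notch3 was also called, which the insert fixed by design. DESeq2 and the fit with the matched set as a block also called the receptor gene Notch4 higher, beside 5.05% and 5.19% of all genes tested. Notch4 had 10.9, 14.3, 14.4 and 7.93 normalized counts in Control of Sets 1 to 4, and 38.0, 10.3, 44.1 and 27.0 in Notch3IC. Its Set 2 value in Notch3IC was below that of its Control. DESeq2 called the ligand gene Dll4 higher (1 count over the Control libraries, 48 over the Notch3IC libraries), beside the same 5.05%. Dll4 did not pass edgeR's expression filter, and the Notch3IC library of Set 2 had 0 counts of it. The log2 fold change was 5.72 for Notch1, -0.03 for Notch2 and 1.35 for Notch4, and the median of the ligands was -0.53, against -0.01 over all genes tested. Of 9 modulators tested, the Deltex gene Dtx4 was called higher, with a mean of 119 ± 38.2 normalized counts in Control against 1236 ± 1164 (SD, n = 4) in Notch3IC. For Dtx4, edgeR gave a log2 fold change of 3.38 with a standard error of 0.74 (adjusted p = 0.0591), and the median of the modulators was 0.04. For Dtx4 the Notch3IC libraries ran 362, 204, 2644 and 1736 in Sets 1 to 4, with Set 2 lowest, as for the Hey genes. The Fringe gene Lfng was not called by edgeR, with a mean of 735 ± 104 normalized counts in Control against 364 ± 260 in Notch3IC (SD, n = 4). It was called lower by DESeq2 and with the block, in which 1.37% and 2.53% of all genes tested were called lower. Lfng had 876, 720, 722 and 625 normalized counts in Control of Sets 1 to 4, and 266, 753, 225 and 212 in Notch3IC. In Set 2 it was thus slightly above its Control.

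None of the 8 genes tested of the nuclear Notch complex was called by edgeR or by DESeq2, and 1 of them had an unadjusted p under 0.05 with a higher value, beside 11.8% of all genes tested. Rbpj, through which the Hey genes are activated, averaged 1223 ± 102 normalized counts in Control against 1334 ± 207 in Notch3IC (SD, n = 4). Its fitted log2 fold change was 0.13 with a standard error of 0.13 (adjusted p = 0.667 by edgeR). The coactivator gene Maml2 had an adjusted p of 0.0809 at a log2 fold change of 0.43 (standard error 0.11), under the limit of 1. The list's median was 0.09.

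None of 12 corepressor genes that work with Hes and Hey proteins was called by edgeR, where 3 had an unadjusted p under 0.05 with higher and 1 with lower values, beside 11.8% and 6.65% of all genes tested. DESeq2 and the fit with the matched set as a block each called the same 2 higher, Tle2 and Tle6, beside 5.05% and 5.19% of all genes they tested. Tle2 had 25.8, 201, 75.6 and 95.1 normalized counts in Control and 69.3, 341, 408 and 681 in Notch3IC of Sets 1 to 4, above its own set each time. Its log2 fold change was 1.93 with a standard error of 0.71 (adjusted p = 0.201 by edgeR). Tle3 had an adjusted p of 0.0631 by edgeR at a log2 fold change of -0.55 (standard error 0.13), under the limit of 1. The list's median was 0.12.

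Since Hey genes mark endothelial and mural cells, markers of these cells were read in the same libraries. Of 7 endothelial markers, Cdh5, Tek, Tie1 and Emcn had at most 3 counts in any library, and Flt1 alone was called higher by edgeR, beside 3.40% of all genes tested, at 43.9 ± 10.7 normalized counts in Control and 2797 ± 1748 (SD, n = 4) with Notch3IC. Pecam1 had 14.1 ± 7.86 and 21.0 ± 4.59 normalized counts in Control and Notch3IC, and Kdr 9.40 ± 4.69 and 13.2 ± 7.68 (SD, n = 4), neither of them called. The summed level of the 7 was 3.19, 2.97, 2.75 and 2.85 CPM in Control and 185, 12.6, 148 and 140 in Notch3IC, most of it Flt1. Of 8 mural markers, 5 were tested and Cspg4 and Pdgfrb were called higher, beside the same 3.40%, with Acta2 the most abundant gene in both groups. The fit with the block called all 5 higher, adding Acta2, Cnn1 and Tagln, and DESeq2 called Cspg4, Pdgfrb and Rgs5, beside 5.19% and 5.05% of all genes tested in these fits. Their summed level was 1531, 493, 320 and 129 CPM in Control and 3525, 838, 1344 and 1078 in Notch3IC. Of the leukocyte markers, Ptprc, Cd3e, Itgam and Emr1 had at most 2 counts in any library. Csf1r was the only gene of this list called higher, with 8.92, 11.9, 6.70 and 7.14 normalized counts in Control and 40.3, 14.7, 20.2 and 23.7 in Notch3IC of Sets 1 to 4 (adjusted p = 0.0719 by edgeR). Cd68, the most abundant of the list, was not called, at 80.8 ± 29.3 in Control and 61.1 ± 21.4 in Notch3IC (SD, n = 4), and Lyz2 had 6 counts over the Control libraries and 23 over the Notch3IC libraries. The summed level of the list was 2.42 to 5.47 CPM in Control and 3.52 to 5.18 CPM in Notch3IC. The part of other cell types in the rise of the Hey genes was not tested.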

How the data were processed

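Single-end reads of poly-A selected RNA were obtained from 4 Control and 4 Notch3IC lines. Whole-number read counts, not normalized, were deposited for each symbol by the authors, made with TopHat and Cufflinks per the labels. Their notes name mm9, and versions, annotation and strandedness are not given in the sources used here. Gene positions, lengths and overlaps were taken from GENCODE M21 (GRCm38), without conversion of coordinates, and promoters from RefSeq (GRCm38.p6).

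The main fit used edgeR 4.0.16 in R 4.3.3 (TMM, filterByExpr by condition, robust quasi-likelihood test) with condition alone, as no set term is described. The alternatives were DESeq2 1.42.0, other normalizations, filters and thresholds, a block for the matched set, and leaving out each library or set. A set pairs a Control with a Notch3IC line by the study's description, and deviations of a set's libraries from their group means correlated at 0.80, 0.40, 0.57 and 0.41 in Sets 1 to 4. For Control and Notch3IC libraries of different sets the correlations ran from -0.50 to 0.37, so Sets 2 and 4 lay only slightly above the highest of these. Standard errors come from the fitted coefficients. Permutation tests were run in SciPy 1.17.1. The main edgeR fit was tried on counts simulated without differences between sets. There 33.7% of log2 fold changes of 1, 89.4% of 2 and 95.9% of 3 were recovered. A true change near the limit of 1 could thus go uncalled. DESeq2 and the block fit were not tried in this way.

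The members and gene lists were chosen with earlier results of these data known. Genes named are the members, called or reference genes of the lists, and the 5 genes most correlated with Hey1, Hes1 and Bhlhe40 among tested genes with a mean of at least 50 normalized counts. Tle2, Tle6, Tle3, Maml2, Notch4, Dll4, Lfng, and the marker genes not called by edgeR were named after their values were seen. A leukocyte marker of the list is not reported here by name.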

Additional observations from a re-analysis of the deposited data

Results flagged for a closer look

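Each group of 4 libraries was searched, for the 10 genes and the library totals, for a library far from the other 3. Of 22 groups, 1 had a gap, relative to the whole range of the group, above Dixon's 95% critical value, where chance gives about 1 in 20. It was Hes1 in Notch3IC, where the library of Set 1 had 1227 normalized counts and the others 509 to 549. The gap was 0.944 of the range.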

How the results depend on the processing

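Hey1, Hey2, Heyl and Nrarp kept their calls under DESeq2, under every normalization, threshold and block tried and with any single library left out. Where every library had to hold 10 counts or more, 1 member was called, Hey1, as the other 3 were no longer tested. Members called higher ranged from 0 to 4 with a library or set left out, the 0 being without Set 3 and without Set 4, where 4 members had an unadjusted p under 0.05 in either edgeR fit. Hes1, Hes6 and Bhlhe40 were called under no alternative and kept their direction, while Hes1 and Bhlhe40 had an adjusted p of 0.0636 and 0.0810 with the block at fold changes under the limit. Over the whole table, 423 genes were called higher and 92 lower. DESeq2 gave 708 and 192, the replicate block for the matched set 645 and 315, an adjusted p under 0.05 gave 48 lower, and no fold-change limit 210 lower. With a library or set left out the calls ranged from 0 to 702 higher and from 0 to 305 lower. The block changed the call of no member other than Bhlhe41.

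The differences of the Hey1, Hey2 and Heyl ratios to Hes1 were 6.21, 5.62 and 10.22 in the exact sign-flip test over the paired sets (replicate block), which gave p = 0.125, the smallest it allows, for each. With a library or set left out they ranged from 5.57 to 7.14, from 4.68 to 6.69 and from 9.41 to 11.19, and with a pseudocount of 0.1 or 3 they were 6.23 or 6.11, 5.86 or 4.73 and 11.51 or 8.43. With a library or set left out no permutation test can pass 0.05, as 3 against 4 libraries allow 0.0571 and 3 against 3 allow 0.1, so their p values say nothing of stability. Depth limits Hes2, Hes7, and the Control values of Hey2 and Heyl.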

Other observations

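Bhlhe40 and Bhlhe41 repress genes of the circadian clock through E-boxes, and 12 clock genes were read beside them. None was called by edgeR or DESeq2, and 0 had an unadjusted p under 0.05 by edgeR, where 11.8% of all genes tested were higher and 6.65% lower at that limit. The median log2 fold change was 0.07, against -0.01 over all genes tested. The log2 fold change furthest from 0 was that of Hlf, at -0.80 (standard error 0.45, adjusted p = 0.390 by edgeR), with 13.3 ± 5.43 normalized counts in Control against 7.78 ± 3.43 in Notch3IC (SD, n = 4). The highest above 0 was that of Nr1d1, a clock repressor, at 0.72 (standard error 0.39, adjusted p = 0.372 by edgeR), with 721, 388, 274 and 308 normalized counts in Control and 1103, 384, 553 and 752 in Notch3IC of Sets 1 to 4. Both genes were chosen after their values were seen. Clock was the most abundant of the 12, averaging 4247 ± 609 normalized counts in Control against 4875 ± 1045 in Notch3IC (SD, n = 4).

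Of the 10 ovarian surface markers, 9 were tested and Msln, which encodes mesothelin, was called lower, with 2349 ± 1152 normalized counts in Control against 389 ± 290 (SD, n = 4) in Notch3IC. For Msln the fitted log2 fold change was -2.60 with a standard error of 0.59 (adjusted p = 0.0625 by edgeR). Its Notch3IC values were 82.8, 780, 314 and 381 in Sets 1 to 4, with Set 2, where the Hey genes were lowest, the highest. DESeq2 called 4 of the 10 lower (Krt7, Krt19, Upk3b and Msln) and the fit with the matched set as a block 3 (Krt19, Upk3b and Msln), where edgeR, DESeq2 and the block called 0.740%, 1.37% and 2.53% of all genes tested lower. Krt19 had 4457 ± 2849 normalized counts in Control against 1028 ± 565 in Notch3IC (SD, n = 4). The list had a median log2 fold change of -0.74, with 7 of 9 genes below 0.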
